A study of Mus musculus with 3 samples.

Results

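The genes described here form the glycolysis and hypoxia response module of 46 listed genes. It holds the hypoxia-inducible factor (HIF) subunits with their oxygen sensors, transporters of glucose and lactate, and enzymes on the way from glucose to lactate. It also holds the kinases that keep pyruvate back from the mitochondria, and 7 genes known to be induced at low oxygen. A gene was represented by its brightest probe set among those annotated to a single symbol, on log2 of the deposited intensity. This gave a value for 43 of the 46 genes, out of 19938 genes measured in all; Gpi1, Pfkfb1 and Eno1 had no such probe set and are not analysed here. The arrays are labelled as sorted stromal populations of mouse marrow (tibia, femur and pelvis) without treatment, a label that the markers below bear on. CXCL12-abundant reticular (CAR) cells, a reticular population that surrounds marrow sinusoids, came from CXCL12-GFP knock-in mice and fill 2 arrays, labelled as replicates from 2 mice. The other population was gated PDGFRa+ Sca+ CD45- lineage- and is labelled here as PaS, which names the array by its gate only. It came from Prx1-Cre Rosa26Ai9/+ Cxcl12gfp/+ mice and fills 1 array, made from 3 mice combined. Every mouse thus carried GFP at Cxcl12, while the Prx1-Cre driver, which is active in limb bud mesenchyme, and the Rosa26Ai9 reporter were present on the PaS side only. Cell type, genotype and pooling differ together and cannot be told apart. No age is given in the sources used here.

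In low oxygen the HIF alpha subunits escape hydroxylation by the EGLN prolyl hydroxylases and destruction through VHL. They then pair with ARNT, bind a short DNA core in target genes, and raise glucose uptake, glycolysis, lactate export and pyruvate dehydrogenase kinases. Bone marrow is a tissue of low oxygen tension, and glycolysis there is best known from hematopoietic stem cells. HIF activity is set mostly at the protein level, which an RNA array does not measure.

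The check of the labels came first. Cxcl12 had log2 intensities of 10.94 and 11.11 in CAR cells and 7.76 on the PaS-labelled array. Pdgfra, which encodes the receptor of the PaS gate, stood at 7.52 and 7.97 in CAR cells against 4.33 on the PaS-labelled array. Ptprc, which encodes the CD45 that was gated out, stood at 5.11 and 5.01 in CAR cells against 8.27 on the PaS-labelled array, so both genes go against the label of the PaS-labelled array. Stromal markers summed to intensities of 5593 and 6351 on the CAR arrays and 618 on the array labelled PaS, with 9 of 12 genes higher in CAR cells and 0 lower (10 and 2 at an unadjusted p under 0.05 in limma's test). The fibrillar collagen genes Col1a1 and Col3a1 were the 2 that lay lower, with log2 differences of -0.82 and -1.09. Leukocyte markers summed to 604 and 859 against 3287, with 8 of 10 lower in CAR cells, and neutrophil markers to 3243 and 2985 against 17015, with 9 of 12 lower. Of the macrophage, endothelial and chondrocyte lists, 5 of 10, 5 of 10 and 2 of 10 were lower in CAR cells. Of 7 erythroid genes, 1 was lower. The chondrocyte list summed to 164 and 182 on the CAR arrays against 1652 on the PaS-labelled array, with 0 genes called higher. Its 2 lower genes were Prg4, at 4.17 and 5.61 in CAR cells against 10.46, and Comp, at 4.31 and 5.12 against 6.84. Most of the 1652 came from Prg4. Of the skeletal muscle genes, 0 of 12 passed in either direction (0 higher and 1 lower at an unadjusted p under 0.05 in limma's test). Cell cycle genes summed to 190.4 and 191.7 against 798, with 9 of 11 lower. No marker was at 0 on any array, and the deposited table holds no detection calls used here. The part of these other cells in the differences below was not tested. In such bulk samples fewer cells of a type and less RNA per cell cannot be told apart.

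**Figure D1:**
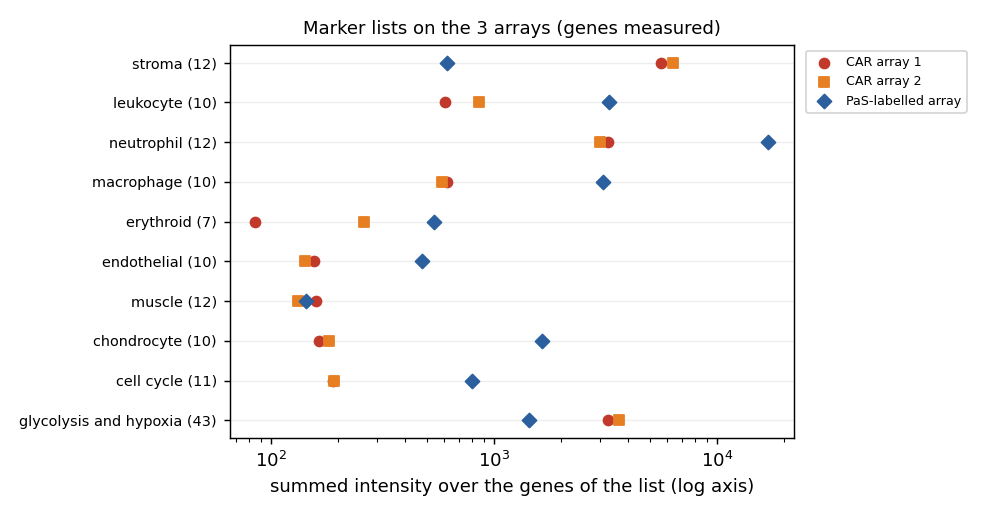
Summed intensity (log axis) of each marker list, and of the 43 glycolysis and hypoxia genes, for both CAR arrays and the single PaS-labelled array; the number of genes measured stands in brackets. Stromal markers lie higher on both CAR arrays (5593 and 6351 against 618), leukocyte, neutrophil, macrophage and cell cycle genes higher on the PaS-labelled array, and skeletal muscle genes at 160 and 132 on the CAR arrays against 143 on the PaS-labelled array.

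Of the 43 genes, 7 rose and 1 fell in CAR cells relative to the array labelled PaS (limma, Benjamini-Hochberg adjusted p under 0.05 over all 19938 genes). Hif1a, Epas1, Arnt, Pdk2, Pdk4, Bnip3l and Ddit4 rose, and Pgk1 fell. This is 16.3% of the measured genes higher and 2.33% lower, against 8.56% and 6.42% of all genes, and 15.0% of all genes in either direction. By size alone, 9 of the 43 were at least 2-fold (1 log2 unit) higher in both CAR arrays and 5 at least 2-fold lower, which is 20.9% and 11.6% against 10.9% and 8.92% of all genes. Both CAR arrays lay above the PaS-labelled array for 27 genes and below it for 12; among all genes, 37.4% lay above and 46.8% below. The median log2 difference was 0.36 over the module and -0.10 over all genes. At an unadjusted p under 0.05, 11 of the 43 were higher and 5 lower (25.6% and 11.6%, against 17.1% and 18.0% of all genes).

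The balance of calls depended on the setting. With each array centred on its median, 11 genes rose and 5 fell, against 12.3% and 9.59% of all genes. After quantile normalization 13 rose and 7 fell, against 14.2% and 12.7%. A robust prior, with no change of scaling, gave 9 and 5, against 10.9% and 8.92%. An intensity trend gave 6 and 2, against 8.09% and 8.78%. The fit to the 9969 brighter genes, whose median difference was 0.37, held only 27 of the module. Of these 27, 9 rose and 3 fell, against 20.7% and 5.12%. Averaging the probe sets of a gene gave the same 7 and 1. The share of the module's calls that were higher was thus 87.5% in the fit reported here and 68.8% with centring. It was 65.0% with quantile normalization, 64.3% with a robust prior, and 75% both with an intensity trend and among the brighter genes. Over all genes, calls numbered 1706 higher and 1281 lower in the fit reported here, 2461 and 1913 with centring, and 2839 and 2532 with quantile normalization. They numbered 2180 and 1778 with a robust prior, 1613 and 1751 with an intensity trend, and 2062 and 510 among the brighter genes.

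Only the CAR side has replicates, so the tests borrow its spread for the lone PaS-labelled array. All 8 calls were lost in 2 settings in which limma called 0 genes in the whole table. With all 35556 probe sets fitted, the lowest adjusted p was 0.0567 and 10575 probe sets had an unadjusted p under 0.05. With 16 intensity units added before the logarithm, the lowest adjusted p was 0.0539 and 5785 genes had an unadjusted p under 0.05. The prior degrees of freedom of the fit were 3.05 and 1.76 in these settings, against 4.20 in the fit reported here.

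**Figure D2:**
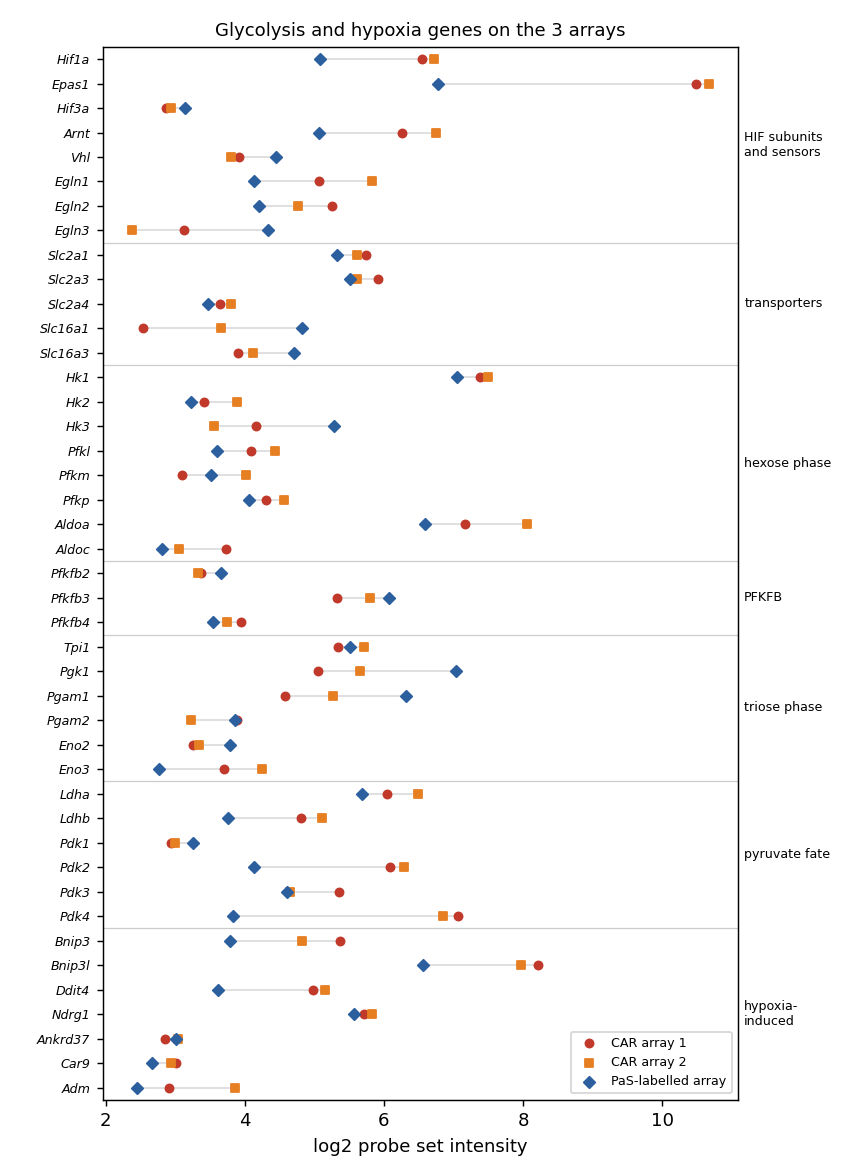
Log2 probe set intensity of the 43 measured genes, in order of their role, for the 2 CAR arrays (circles and squares) and the single PaS-labelled array (diamonds). The widest gaps are at Epas1 and Pdk4, where both CAR arrays lie above the PaS-labelled array, and Pgk1 and Slc16a1 show the reverse order.

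The HIF subunits gave the largest difference of the module. Epas1 encodes the oxygen-regulated subunit also called HIF2A, which is prominent in endothelial and interstitial cells. It had log2 intensities of 10.49 and 10.67 in CAR cells and 6.77 on the PaS-labelled array, a 14.0-fold higher level (log2 difference 3.81 ± 0.29, SE; adjusted p = 0.00955, limma). The CAR arrays lay close together and far above the PaS-labelled array, and 70 of the 19938 genes had a larger difference toward CAR cells. Hif1a, the broadly expressed alpha subunit, stood at 6.55 and 6.72 in CAR cells against 5.08 on the PaS-labelled array, 2.94-fold higher (1.56 ± 0.29; adjusted p = 0.0320). Arnt, the shared partner of the alpha subunits, stood at 6.27 and 6.76 against 5.06, 2.73-fold higher (1.45 ± 0.33; adjusted p = 0.0479). Its call sat at the threshold and was also lost with an intensity trend in the variance (adjusted p = 0.0562). Hif3a, whose product can restrain the other alpha subunits, was dim on every array at 2.87 and 2.94 in CAR cells against 3.13 on the PaS-labelled array (adjusted p = 0.599). The 3 genes that rose moved with the stromal marker sums given above. That list holds Cxcl12, the gene that CAR cells are named for, so its sums need not measure stromal cell content. The part of stromal cell content in the 3 genes was not tested.

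The oxygen sensors did not share 1 direction. Egln1, the main prolyl hydroxylase in most tissues, stood at 5.06 and 5.82 in CAR cells against 4.14 on the PaS-labelled array, a log2 difference of 1.30 that did not pass (adjusted p = 0.0861). Egln2 stood at 5.26 and 4.76 against 4.21 (adjusted p = 0.161). Egln3, the prolyl hydroxylase that HIF itself induces, lay the other way at 3.12 and 2.38 in CAR cells against 4.33 on the PaS-labelled array (log2 difference -1.58, adjusted p = 0.0571). Both CAR arrays were at least 2-fold below the PaS-labelled array for Egln3, but both CAR values lay below the median of all genes there, 3.74 and 3.75, where the size of a fold is uncertain. Vhl, the ubiquitin ligase subunit that recognises hydroxylated HIF, stood at 3.92 and 3.81 against 4.44 (adjusted p = 0.209). With 8 genes measured, 3 of this group rose and 0 fell, where 8.56% and 6.42% of all genes did (4 and 1 at an unadjusted p under 0.05, against 17.1% and 18.0% of all genes).

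**Figure D3:**
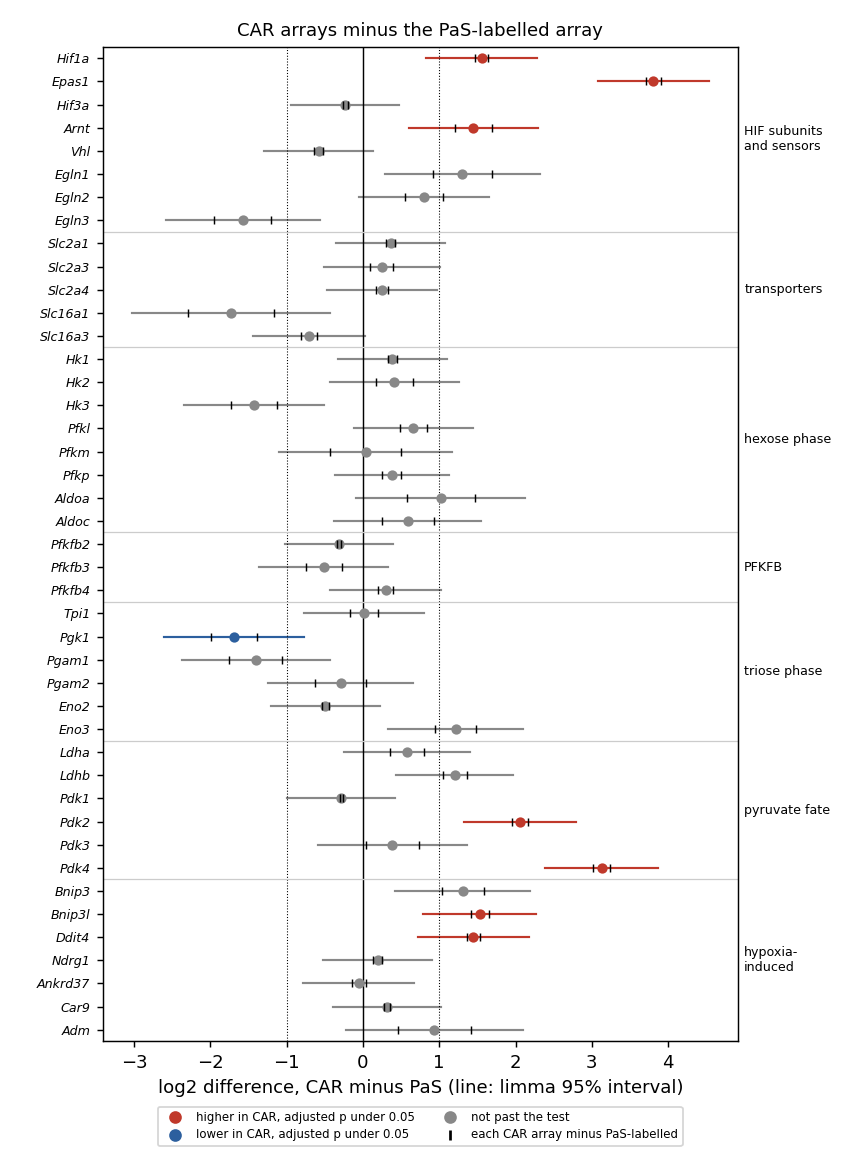
Log2 difference, CAR minus PaS, for the 43 genes: dots are the fitted difference, lines limma's 95% interval, short ticks each CAR array minus the PaS-labelled array, and dotted lines mark 2-fold. Red dots mark the 7 genes that rose in CAR cells, the blue dot Pgk1, which fell, and grey dots the 35 that did not pass.

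Genes that decide the fate of pyruvate held the second large difference. Pyruvate dehydrogenase kinases phosphorylate and switch off pyruvate dehydrogenase, which keeps pyruvate out of the tricarboxylic acid cycle. Pdk4, the isoform induced by fasting and fatty acids, had log2 intensities of 7.07 and 6.85 in CAR cells against 3.83 on the PaS-labelled array, 8.74-fold higher (3.13 ± 0.29, SE; adjusted p = 0.0116, limma). That last value sits near the median of its array, 3.77, and with 16 added before the logarithm the log2 difference was 2.22. Pdk2, a widely expressed isoform, stood at 6.09 and 6.29 against 4.13, 4.17-fold higher (2.06 ± 0.29; adjusted p = 0.0207), and 1.41 on the log2 scale with 16 added. In both genes the CAR arrays lay close together and far above the PaS value. Pdk1, the isoform known as a direct HIF target, was dim on all arrays at 2.94 and 2.99 in CAR cells against 3.25 on the PaS-labelled array (log2 difference -0.28, 95% interval -0.99 to 0.43; adjusted p = 0.517). Pdk3 stood at 5.35 and 4.65 against 4.61 (adjusted p = 0.518), so that 1 CAR array lay beside the PaS-labelled array. Of the lactate dehydrogenase subunits, Ldhb, the form of oxidative tissues, stood at 4.81 and 5.11 in CAR cells against 3.76 on the PaS-labelled array (1.21 ± 0.30, adjusted p = 0.0560, limma). The second probe set of Ldhb gave 4.55 and 4.42 against 3.76, a log2 difference of 0.73 (1.65-fold). Ldha, the form favoured in glycolysis and a known HIF target, stood at 6.04 and 6.49 against 5.68 (0.58, 95% interval -0.25 to 1.41; adjusted p = 0.267).

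HIF dimers bind the core ACGTG or GCGTG. Both were searched on both strands of 300-base windows around each annotated start (250 bases before to 50 after), taken from RefSeq on GRCm38.p6. A window was at hand for 41 of the 46 genes; Epas1, Slc2a3, Slc2a4, Bnip3l and Ndrg1 are not among them. At least 1 core stood in a window of 36 of these 41 genes (87.8%), against 46.7% of 27025 genes with a window. A gene can have several windows. Counted by window, 47 of the module's 60 windows held a core (78.3%), against 43.8% of all 32851 windows. ACGTG, which counts once on each strand where it stands in the palindrome CACGTG, was found for 24 of the 41 (58.5%, against 21.8% of all genes) and GCGTG for 27 (65.9%, against 35.2%). The windows of the module were also richer in CG dinucleotides, with a median of 16.5 a window against 7, and each core holds a CG. Genes that did not pass held a core too, 28 of 32 of them, as did 5 of 5 genes that rose and the gene that fell. The windows of the 2 kinases that rose together are shown with the cores in capitals; the Pdk2 window is on the minus strand at chr11:95041322-95041621 and the Pdk4 window on the minus strand at chr6:5496229-5496528.
Pdk2: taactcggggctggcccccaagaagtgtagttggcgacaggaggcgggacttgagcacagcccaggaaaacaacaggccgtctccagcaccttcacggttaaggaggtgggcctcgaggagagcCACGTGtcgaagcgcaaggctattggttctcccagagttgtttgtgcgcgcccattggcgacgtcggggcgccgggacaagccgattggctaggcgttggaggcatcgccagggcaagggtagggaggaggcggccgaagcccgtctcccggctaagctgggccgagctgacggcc
Pdk4: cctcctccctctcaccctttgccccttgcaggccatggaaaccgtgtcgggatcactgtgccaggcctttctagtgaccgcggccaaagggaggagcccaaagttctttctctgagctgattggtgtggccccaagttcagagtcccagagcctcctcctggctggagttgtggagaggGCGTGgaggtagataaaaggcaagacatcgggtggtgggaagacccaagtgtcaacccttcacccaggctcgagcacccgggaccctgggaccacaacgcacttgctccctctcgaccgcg
Pdk2 holds ACGTG once on each strand in 1 overlapping CACGTG, and its other annotated start holds no core. Pdk4 holds a single GCGTG. A match is a description of these letters and no evidence of binding.

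Among genes known to be induced at low oxygen, 2 of 7 rose and 0 fell, against 8.56% and 6.42% of all genes. At an unadjusted p under 0.05 in limma's test, 3 were higher and 0 lower, against 17.1% and 18.0% of all genes. Bnip3l, which marks mitochondria for removal by autophagy and is best known from maturing red cells, stood at 8.21 and 7.97 in CAR cells against 6.56 on the PaS-labelled array, 2.88-fold higher (1.53 ± 0.29, SE; adjusted p = 0.0346, limma). Its second probe set gave 7.54 and 7.63 against 6.46, a log2 difference of 1.12. Ddit4, an inhibitor of mTORC1 induced by hypoxia, glucocorticoids and stress, stood at 4.97 and 5.15 in CAR cells against 3.62 on the PaS-labelled array, 2.73-fold higher (1.45 ± 0.29; adjusted p = 0.0368). Its level on the PaS-labelled array lay below that array's median, and with 16 added the log2 difference was 0.81. Both genes had CAR arrays close together and above the PaS-labelled array. Bnip3, the relative of Bnip3l, stood at 5.37 and 4.82 against 3.78 (1.31 ± 0.35; adjusted p = 0.0635), and its second probe set gave a log2 difference of only 0.38, so the probe sets disagree by more than 1.5 times. Adm, the vasodilator adrenomedullin, stood at 2.91 and 3.86 against 2.45, with unequal CAR arrays (adjusted p = 0.210). Ndrg1 stood at 5.71 and 5.83 against 5.58 (log2 difference 0.19, 95% interval -0.52 to 0.91). The strict hypoxia markers Car9, a surface carbonic anhydrase, and Ankrd37 lay below the median of all genes on every array. Car9 stood at 3.01 and 2.94 in CAR cells against 2.66 on the PaS-labelled array, and Ankrd37 at 2.86 and 3.04 against 3.004. The promoter window of Ddit4, on the minus strand at chr10:59951721-59952020, holds 1 ACGTG and 1 GCGTG, shown in capitals.
Ddit4: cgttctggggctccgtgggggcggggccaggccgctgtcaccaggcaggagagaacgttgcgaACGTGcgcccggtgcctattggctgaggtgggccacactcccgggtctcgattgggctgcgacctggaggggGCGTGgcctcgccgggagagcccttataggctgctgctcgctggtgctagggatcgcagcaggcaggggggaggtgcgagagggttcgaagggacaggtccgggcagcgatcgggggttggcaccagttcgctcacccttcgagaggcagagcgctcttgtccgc

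**Figure D4:**
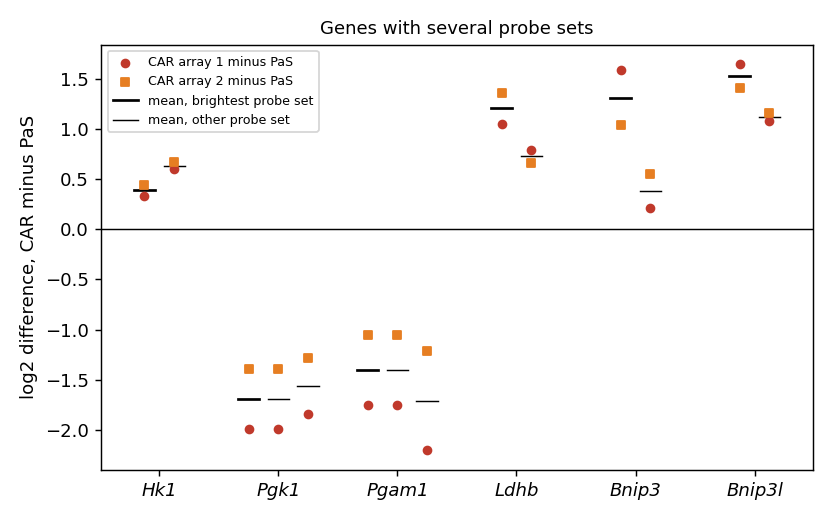
Log2 difference, CAR minus PaS, for each probe set of the 6 genes with more than 1: circles and squares are CAR arrays 1 and 2, bars their mean, the thick bar the brightest probe set. Probe sets of a gene share a direction in all 6 genes, and those of Bnip3 lie apart at 1.31 and 0.38.

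The module's enzymes from glucose to lactate gave a single call. They include no gene of glyceraldehyde phosphate dehydrogenase or pyruvate kinase, and Gpi1 and Eno1 were not measured. Of the 16 measured, 0 rose and 1 fell (6.25%, against 6.42% of all genes lower). At an unadjusted p under 0.05, 2 were higher and 3 lower (12.5% and 18.8%, against 17.1% and 18.0% of all genes), so the counts lie near the background. The median log2 difference was 0.38. A difference between these counts and those of the regulators was not tested. Of the hexose phase, 0 of 8 genes passed in limma's test, against 15.0% of all genes. At an unadjusted p under 0.05, 0 were higher and 1 lower, against 17.1% and 18.0% of all genes. Hexokinases trap glucose in the cell. Hk1 stood at 7.38 and 7.49 in CAR cells against 7.05 on the PaS-labelled array (adjusted p = 0.380). Its brightest probe set is uncertain, because 16 further probe sets name Hk1 together with the ribosomal protein gene Rpl17; the second probe set gave 4.44 and 4.50 against 3.84. Hk2, the hypoxia-inducible hexokinase, was dim at 3.41 and 3.88 against 3.23 (log2 difference 0.41, 95% interval -0.43 to 1.25). Hk3, the hexokinase of myeloid cells, stood at 4.16 and 3.56 in CAR cells against 5.29 on the PaS-labelled array (-1.43 ± 0.36, SE; adjusted p = 0.0571). Both CAR arrays were at least 2-fold below the PaS-labelled array for Hk3, which moved with the leukocyte sums of 604 and 859 against 3287. The sums of several other marker lists lay the same way, and the part of these cells in Hk3 was not tested.

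Phosphofructokinase commits sugar to glycolysis, and 0 of its 3 subunit genes passed, against 15.0% of all genes. At an unadjusted p under 0.05 (limma) 0 were higher and 0 lower, against 17.1% and 18.0% of all genes. Pfkl stood at 4.09 and 4.44 in CAR cells against 3.60 on the PaS-labelled array, with a log2 difference of 0.66 whose 95% interval, -0.12 to 1.45, holds a 2-fold change. Pfkp had a log2 difference of 0.38 (adjusted p = 0.410), while for the muscle form Pfkm the PaS value of 3.52 lay between the CAR values of 3.09 and 4.02. Aldolase splits the hexose. Aldoa stood at 7.16 and 8.05 in CAR cells against 6.59 on the PaS-labelled array, and the gap between the CAR arrays was of the same order as the difference of 1.02 (95% interval -0.09 to 2.13; adjusted p = 0.167). Aldoc, the brain form, was dim at 3.73 and 3.05 against 2.81 (adjusted p = 0.328). The PFKFB enzymes set the level of the activator of phosphofructokinase. Of the 3 measured, 0 passed in limma's test, against 15.0% of all genes, and 0 had an unadjusted p under 0.05. Pfkfb3, the hypoxia-inducible one, stood at 5.32 and 5.81 in CAR cells against 6.08 on the PaS-labelled array (-0.51, adjusted p = 0.329). Pfkfb2 and Pfkfb4 had log2 differences of -0.31 and 0.30.

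In the triose phase, 1 of 6 genes fell and 0 rose, against 6.42% and 8.56% of all genes. At an unadjusted p under 0.05 in limma's test, 2 were lower and 1 higher, against 18.0% and 17.1% of all genes. Pgk1, phosphoglycerate kinase, the first step of glycolysis that yields ATP, stood at 5.05 and 5.65 in CAR cells against 7.04 on the PaS-labelled array, 3.22-fold lower in CAR cells (-1.69 ± 0.36, SE; adjusted p = 0.0414, limma). Both CAR arrays lay below the PaS-labelled array, by more than they differed from each other. Of its 3 probe sets, 2 hold identical values and count as 1 measurement, and the remaining one gave -1.56. The gene table also lists the pseudogene Pgk1-rs7, whose signal cannot be separated here. Pgam1, phosphoglycerate mutase, followed with 4.57 and 5.27 in CAR cells against 6.32 on the PaS-labelled array (-1.40 ± 0.38; adjusted p = 0.0673), and a further probe set gave -1.71 while the other two were identical. Both genes moved with the leukocyte and cell cycle sums, 604 and 859 against 3287 and 190.4 and 191.7 against 798. The neutrophil, macrophage, erythroid, endothelial and chondrocyte sums were higher on the PaS-labelled array too. The part of any of those cells was not tested. Tpi1, triose phosphate isomerase, was level at 5.34 and 5.71 against 5.51, with the PaS value between the CAR values (0.01, 95% interval -0.78 to 0.81). Of the tissue forms, Eno3, the muscle enolase, stood at 3.70 and 4.25 in CAR cells against 2.76 on the PaS-labelled array (1.21, adjusted p = 0.0742), Eno2, the neuronal enolase, at 3.25 and 3.34 against 3.79 (-0.49), and Pgam2, the muscle mutase, at 3.89 and 3.23 against 3.85 (-0.29). Pgk1 is the classical hypoxia-induced enzyme, and its window, on the plus strand at chrX:106186850-106187149, is shown because it moved against the HIF subunits; it holds ACGTG once on each strand, in capitals.
Pgk1: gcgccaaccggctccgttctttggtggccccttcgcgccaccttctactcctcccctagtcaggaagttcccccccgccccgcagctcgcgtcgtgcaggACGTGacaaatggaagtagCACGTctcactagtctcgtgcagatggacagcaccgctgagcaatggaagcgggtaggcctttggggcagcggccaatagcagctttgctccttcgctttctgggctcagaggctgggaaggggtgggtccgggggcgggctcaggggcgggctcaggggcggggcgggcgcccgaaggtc

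Of the transporters, 0 of 5 passed in limma's test, where 15.0% of all genes did. At an unadjusted p under 0.05 in that test, 0 were higher and 1 lower, against 17.1% and 18.0% of all genes. Slc2a1, the basal glucose transporter and a HIF target, stood at 5.74 and 5.62 in CAR cells against 5.32 on the PaS-labelled array (0.36, 95% interval -0.35 to 1.08; adjusted p = 0.411). Slc2a3, the high-affinity glucose transporter of neurons and leukocytes, stood at 5.91 and 5.61 against 5.51 (0.25), and Slc2a4, the insulin-responsive form of fat and muscle, at 3.65 and 3.80 against 3.48 (0.25). The intervals leave room for a change of about the 2-fold size in the glucose transporters. Slc16a1 and Slc16a3, the lactate carriers of the module, lay the other way without passing the test. Outside the module, the pyruvate and lactate carrier Slc16a7 rose 2.89-fold (adjusted p = 0.0345, limma). Slc16a1, the widely expressed carrier, stood at 2.53 and 3.66 in CAR cells against 4.83 on the PaS-labelled array (-1.73 ± 0.51, SE; adjusted p = 0.0783), with CAR arrays that were unequal and both below the median of all genes. Slc16a3, the exporter of glycolytic cells and a HIF target, stood at 3.90 and 4.11 against 4.71 (-0.70, adjusted p = 0.155).

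**Figure D5:**
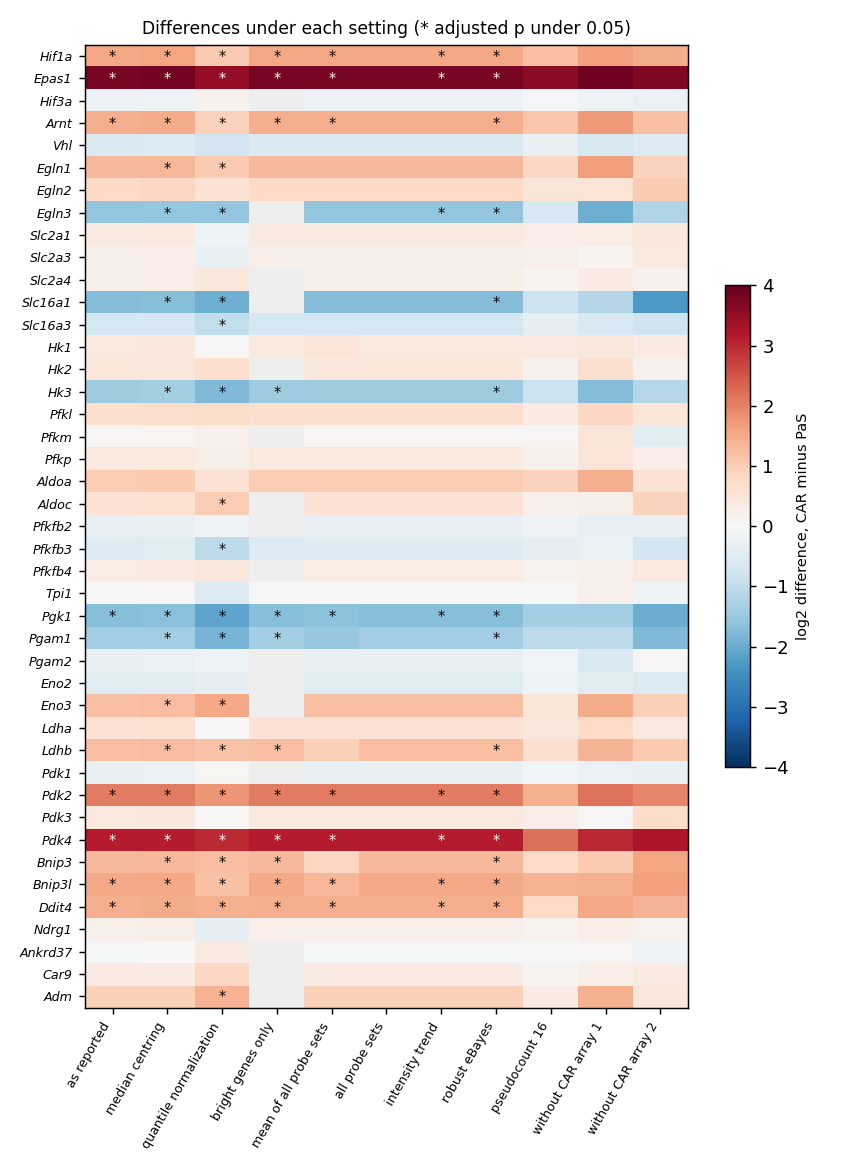
Log2 difference, CAR minus PaS, of the 43 genes (rows) under the reported setting, 8 alternatives with a test and the 2 that leave out a CAR array (columns); stars mark an adjusted p under 0.05 and grey cells genes not tested there, and the columns without a CAR array have no test. Epas1, Hif1a, Pdk2, Pdk4, Bnip3l, Ddit4 and Pgk1 carry a star in 6 of the 8 alternatives and Arnt in 5, and all 43 rows are without one when all probe sets are fitted or 16 is added.

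Some genes that did not pass in the fit reported here passed in part of the alternatives that tested them. These were Egln3 in 4 of 7, Slc16a1 in 3 of 7, Hk3, Pgam1, Ldhb and Bnip3 in 4 of 8 each, Egln1 in 2 of 8 and Eno3 in 2 of 7. Slc16a3 and Pfkfb3 passed in 1 of 8 each, and Aldoc and Adm in 1 of 7 each.

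Genes of the same pathways outside the module were read in the same fit. Of 39 measured genes of glycolysis, gluconeogenesis and pyruvate entry, 4 rose (10.3%) and 0 fell, against 8.56% and 6.42% of all genes. At an unadjusted p under 0.05 (limma), 5 were higher and 4 lower (12.8% and 10.3%, against 17.1% and 18.0% of all genes). After quantile normalization 4 of this list fell, against 12.7% of all genes. The 4 that rose in the fit reported here were G6pc3, Slc16a7, Bsg and Slc2a13. G6pc3, a glucose 6-phosphatase, was 2.93-fold higher at 5.77 and 6.001 in CAR cells against 4.33 on the PaS-labelled array. Slc16a7, a pyruvate and lactate carrier, was 2.89-fold higher. Bsg, basigin, the chaperone of the lactate carriers, was 2.85-fold higher at 7.77 and 8.01 against 6.38. Slc2a13, a proton-coupled inositol transporter, was 2.62-fold higher. Adjusted p lay between 0.0335 and 0.0374. Bsg thus rose while its client carriers Slc16a1 and Slc16a3 had negative differences that did not pass. Of 53 other genes of oxygen sensing and hypoxia response, 11 rose (20.8%) and 2 fell (3.77%), against 8.56% and 6.42% of all genes. At an unadjusted p under 0.05 (limma), 16 were higher and 8 lower (30.2% and 15.1%, against 17.1% and 18.0% of all genes). After quantile normalization 11 rose and 11 fell, against 14.2% and 12.7% of all genes. Vegfa, the angiogenic factor and HIF target, was 8.20-fold higher at 7.84 and 7.94 in CAR cells against 4.85 on the PaS-labelled array (adjusted p = 0.0116). Lox, the collagen cross-linking oxidase, was 6.41-fold higher, and Zfp36l1, an mRNA decay factor, 6.43-fold. The 2 that fell were Cxcr4, the CXCL12 receptor of blood cells, 6.28-fold lower in CAR cells, and the carbonic anhydrase Car12, 2.54-fold lower, with CAR values below the median of all genes. The list median was 0.22, against -0.10 over all genes.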

How the data were processed

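Biotin-labelled cDNA, amplified with a NuGEN kit from total RNA of sorted cells, was hybridised to 3 single-colour Affymetrix arrays, per the labels' protocols. The values deposited by the authors are probe set intensities on a linear scale, made with Affymetrix Expression Console and RMA, per the submitters' processing notes; the sources used here give neither versions nor a genome build. RMA corrects background, equalises probe distributions and summarises probe sets, yet array spreads remained unequal: the lower and upper quartiles over genes were 2.86 and 4.82, and 2.73 and 5.01, on the CAR arrays and 3.16 and 4.52 on the PaS-labelled array (log2 of the intensity, no pseudocount). Dim genes can therefore look lower in CAR cells and bright genes higher.

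Of 35556 probe sets, 21789 carried 1 symbol, 1621 several and 12146 none in the platform annotation used here; identifiers of 21698 matched the gene table, from which current symbols were taken. Each of 19938 genes was represented by its brightest probe set over the 3 arrays. The difference, CAR minus PaS, was tested with limma (version 3.58.1, R version 4.3.3; lmFit and eBayes, two-sided, Benjamini-Hochberg over all genes, threshold 0.05), with 1 residual and 4.20 prior degrees of freedom. SE is limma's moderated standard error. On simulated data with 3 arrays the fit recovered the sizes of the differences, but false calls exceeded the share the threshold allows. A small share of genes was changed there, all upward in CAR cells, unlike these data. The share of false calls in these data is therefore not known, and calls near the threshold are uncertain. The number of arrays limits the precision, and p-values measure only the spread between the CAR arrays. The module, the gene lists and the tests were chosen with earlier results of these data known.

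All 46 genes are accounted for. Outside the module, the text names up to 4 genes of each pathway list with the largest difference among those past the threshold. It also names Cxcl12, Pdgfra and Ptprc. Car12, Col1a1, Col3a1, Prg4 and Comp were named after their values were seen. Alternatives were median centring, quantile normalization, bright genes only, the mean of probe sets, all probe sets, an intensity trend, a robust prior, a pseudocount of 16, and each CAR array left out.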

Additional observations from a re-analysis of the deposited data

How the results depend on the processing

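Centring each array on its median gave 11 genes of the module higher and 5 lower, and 5 of the pentose phosphate and tricarboxylic acid list higher. Of all genes, 12.3% were higher and 9.59% lower with centring. Quantile normalization gave 13 and 7 for the module with a median of 0.24, and 4 lower in the other glycolysis list. It gave 11 lower in the other hypoxia list, and 5 higher and 7 lower in the pentose phosphate and tricarboxylic acid list. Of all genes, 14.2% were higher and 12.7% lower after quantile normalization, and their median moved from -0.10 to 0.03. The same setting turned the sign of Hif3a (0.17), Slc2a1 (-0.16), Slc2a3 (-0.29), Tpi1 (-0.52), Pdk1 (0.061), Ndrg1 (-0.36) and Ankrd37 (0.37), none of which passed the test in either setting. With dim genes (below the median level) removed, 27 of the module were left, with a median of 0.58 (0.37 over all genes kept). Of these, 3 were lower and 3 lower by 2-fold or more, and 1 of the other hypoxia list was lower. Among all genes kept 5.12% were lower, and fewer genes were tested there. An intensity trend gave 2 lower in the module and 1 in the other glycolysis list, against 8.78% of all genes. A robust prior gave 5 lower in the module, against 8.92% of all genes. With all probe sets fitted, and with 16 added, limma called 0 in every list; the added 16 left 5 genes at least 2-fold higher and 1 lower, and a median of 0.19. Leaving out 1 CAR array gave medians of 0.30 to 0.35. The causes of these moves were not tested. No paired analysis was possible because the 2 groups came from mice of different genotypes and the labels give no pairing. Without detection calls, the size of a fold against a dim value is uncertain.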

Other observations

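The pentose phosphate pathway branches from glycolysis, and the tricarboxylic acid cycle receives its pyruvate. Of 31 measured genes of both, 3 rose in CAR cells (9.68%) and 1 fell (3.23%), against 8.56% and 6.42% of all genes (limma). After quantile normalization more genes of this list fell than rose, as given above. Idh1, the cytosolic isocitrate dehydrogenase that makes NADPH, was 8.60-fold higher at 6.32 and 6.20 in CAR cells against 3.16 on the PaS-labelled array (adjusted p = 0.0114), where it lay below the lower quartile of genes, so the size of the fold is uncertain. Aco1, the cytosolic aconitase that doubles as an iron sensor, was 3.27-fold higher, and H6pd, the pentose phosphate dehydrogenase of the endoplasmic reticulum, 3.18-fold. Taldo1, the transaldolase of the cytosolic pentose phosphate pathway, was 3.19-fold lower at 3.96 and 4.01 in CAR cells against 5.66 on the PaS-labelled array (adjusted p = 0.0271).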
